A study of Homo sapiens with 12 samples.

Results

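The zinc finger genes described here were the protein-coding genes of human chromosome 19 whose symbol is ZNF followed by a number and whose counts, scaled to 1000000 counts of the library total (CPM), averaged at least 1 CPM over all 12 libraries. This rule kept 145 of the 241 such genes on the chromosome, and the mean level over all libraries was the only measured value it used. The libraries came from HCT116 cells, an established human line from a colon carcinoma, grown in medium with fetal bovine serum and antibiotics. Of the 4 groups, 2 were wild type for MTHFD2 and 2 were MTHFD2 knock-out cells made with CRISPR-Cas9. MTHFD2 is a folate enzyme of one-carbon metabolism. The knock-out cells were a single isolated clone, so effects of the lost gene and other properties of that clone cannot be told apart. RNA was taken right after the knock-out was made (initial harvest) or after 2 months in culture (final harvest), with 3 replicates per group. All groups were the same line without drug treatment in the labels, and libraries were poly-A selected.

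Most zinc finger proteins of chromosome 19 carry tandem Cys2-His2 fingers, each of which contacts a short stretch of DNA, and many also carry a KRAB domain. The KRAB domain recruits the co-repressor TRIM28, which brings the histone methyltransferase SETDB1 and HP1 proteins and so marks chromatin with histone H3 lysine 9 trimethylation, chiefly over retrotransposons. The genes arose by tandem duplication, lie in clusters, and often have closely related neighbours.

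A small set of these genes was much lower in the knock-out clone, and none was switched on. ZNF550, ZNF493, ZNF426 and ZNF701 fell to between 7.59% and 34.8% of the wild-type level at both harvests, and ZNF222, ZNF845 and ZNF525 fell by smaller amounts. These 7 genes, lowered at least 2-fold at one harvest or the other, lay in 5 of the 14 clusters that hold expressed members. At each harvest 4.14% of the members were called at least 2-fold lower, against 2.85% of all genes tested initially and 2.59% finally. With the level threshold at 2 CPM the members' share was 2.99%, near those 2.85% and 2.59%. The 2 CPM threshold was not applied to all genes tested. ZNF550 and ZNF493 passed the level rule through the wild-type libraries. No member was called at least 2-fold higher in the knock-out by edgeR at either harvest, against 1.91% of all genes tested at the initial and 2.43% at the final one. The highest log2 differences, called or not, were 0.54 and 0.58. The promoter windows of the 3 genes lowered most at the final harvest are given to show the sequence at the starts of the genes with the largest falls. Each window runs from 250 bases before to 50 bases after the gene's start in RefSeq (build GRCh38.p14), is printed 5′ to 3′ along the gene's own strand, and has its CpG dinucleotides in capitals.
ZNF550 (chr19:57559814-57560113, minus strand): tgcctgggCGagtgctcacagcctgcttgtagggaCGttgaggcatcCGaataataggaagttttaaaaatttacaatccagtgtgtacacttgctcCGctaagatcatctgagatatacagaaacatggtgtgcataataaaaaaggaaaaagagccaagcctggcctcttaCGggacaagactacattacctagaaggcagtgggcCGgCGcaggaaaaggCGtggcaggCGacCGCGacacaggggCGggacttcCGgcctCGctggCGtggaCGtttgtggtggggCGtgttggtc
ZNF426 (chr19:9538596-9538895, minus strand): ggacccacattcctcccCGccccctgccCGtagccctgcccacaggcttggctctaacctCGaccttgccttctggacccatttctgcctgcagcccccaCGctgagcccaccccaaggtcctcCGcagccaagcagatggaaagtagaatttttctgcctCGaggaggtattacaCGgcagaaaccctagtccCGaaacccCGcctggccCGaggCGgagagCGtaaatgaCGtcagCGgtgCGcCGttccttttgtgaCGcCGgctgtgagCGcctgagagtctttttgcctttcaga
ZNF493 (chr19:21396883-21397182, plus strand): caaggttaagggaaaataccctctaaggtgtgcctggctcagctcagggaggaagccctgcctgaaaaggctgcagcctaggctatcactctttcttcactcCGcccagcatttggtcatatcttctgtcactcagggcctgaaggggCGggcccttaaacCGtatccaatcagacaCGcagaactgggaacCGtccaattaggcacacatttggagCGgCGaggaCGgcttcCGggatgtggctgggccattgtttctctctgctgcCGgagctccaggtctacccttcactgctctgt
The window of ZNF550 holds 17 CpG, that of ZNF426 holds 19 and that of ZNF493 holds 10, against a median of 22 over the 129 members with a RefSeq window.

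The targeted gene was examined as a check of the labels. MTHFD2 stood at 412 ± 41.2 CPM (SD, n = 3) in the initial wild-type libraries and 355 ± 32.3 CPM in the final ones, against 137 ± 9.1 and 137 ± 16.6 CPM in the knock-out. Its log2 difference was -1.59 at the initial harvest (edgeR quasi-likelihood, adjusted p = 3e-08) and -1.38 at the final harvest (adjusted p = 1.09e-07). Library totals ran from 38597809 to 40017561 counts, and 18289 genes passed the filter on low counts. Epithelial marker genes summed to between 2212 and 3230 CPM per library. Of the intestinal markers among them, KRT20, VIL1 and CEACAM5 were near 0. CDX2, also an intestinal marker, averaged 13.4 and 14.5 CPM in the initial and final wild type and 15.2 and 14.6 CPM in the knock-out. Leukocyte markers summed to at most 0.59 CPM, endothelial markers to at most 2.22 CPM, and fibroblast and muscle markers to between 40.9 and 81.3 CPM, almost all from COL1A1, with DCN at 0 counts. The labels call the replicates biological, and p-values measure the spread between these samples of 1 clone or 1 parental line.

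Levels of the members spanned a wide range. Levels above and below are CPM scaled by library composition (trimmed mean of M-values, TMM), except where the scale of the level rule is named. On that scale, CPM of the library total, the members' mean over all libraries ran from 1.13 to 218 CPM. Its median was 8.90 CPM. Per kilobase of gene length, the median level was 1.96 CPM per kb for the members and 2.69 CPM per kb over all genes tested. ZNF146, a protein made almost wholly of zinc fingers, had the highest level at 47.0 CPM per kb. ZNF121 followed with 30.1, ZNF317 with 12.7, ZNF581 with 12.5 and ZNF574 with 7.86 CPM per kb. None of these 5 was called different between genotypes at either harvest: ZNF146 stood at log2 differences of -0.07 and -0.17, and ZNF121 at -0.15 and -0.06. The sum over all members was 2308 to 2441 CPM in the initial wild type and 2277 to 2349 CPM in the initial knock-out, ranges that overlap. At the final harvest it was 2283 to 2354 CPM in the wild type and 2126 to 2274 CPM in the knock-out, which do not overlap.

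At the initial harvest 16 of the 145 members were called different between genotypes (edgeR quasi-likelihood, Benjamini-Hochberg adjusted p under 0.05 over all genes tested), 1 higher and 15 lower in the knock-out. That is 11.0% of the members, against 19.9% of all genes tested. Lower calls were 11.3% and higher calls 8.55% of all genes. The count fell to 8 without replicate 1 or without replicate 2 of the initial knock-out, and to 10 without its replicate 3. Falls of at least 2-fold were called in 6 of the 145 members, or 4.14%, against 2.85% of all genes. These 6 include ZNF550 and ZNF493, which passed the level rule through the wild-type libraries. With the level threshold at 2 CPM the count was 4 of 134 members, or 2.99%, near the 2.85% of all genes. That threshold was not applied to all genes. After correction for GC content, an alternative chosen after seeing the data, the calls were 7 higher and 15 lower. The median log2 difference of the members was -0.04, and that of all genes tested was 0.00. Median GC content of the transcripts was 43.3% for the members and 48.8% for all genes tested.

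At the final harvest 18 members were called, 3 higher and 15 lower, or 12.4% of them, against 18.5% of all genes tested. Higher calls made up 8.38% and lower calls 10.2% of all genes. Again 6 members, or 4.14%, fell at least 2-fold, against a background of 2.59%, and 4 of 134 (2.99%) did so with the level threshold at 2 CPM. The median log2 difference was -0.03 for the members and 0.00 for all genes. Zinc finger genes of other chromosomes, chosen by the same symbol and level, gave 35 calls of 191 at the initial harvest (7 higher, 28 lower) and 34 at the final harvest (14 higher, 20 lower). Their median log2 differences were -0.06 and -0.04. The other 755 protein-coding genes of chromosome 19 at that level had medians of 0.07 and -0.07. Called at least 2-fold lower were 4 of the 191 at each harvest, and 13 and then 9 of the 755. Called at least 2-fold higher were 1 and then 3 of the 191, and 11 and then 5 of the 755. The members had 6 of 145 lower and 0 higher at each harvest. Differences between these gene groups and the members were not tested.

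The comparisons at the initial and final harvests share no library, so their calls can be set side by side. Of the 145 members, 24 (16.6%) were called at either harvest, against 27.7% of all genes tested. At both harvests 10 members (6.90%) were called, against 10.7% of all genes. All 10 were lower at both, against 6.35% of all genes lower at both, so the members' share was near the background. Another 6 were called at the initial harvest alone and 8 at the final harvest alone. Of the 121 members called at neither, 80 had log2 differences of the same sign. Across the 145 members the log2 differences at the 2 harvests had a Pearson r of 0.876 and a Spearman rho of 0.543, given as a description, since members are not independent. Without the 7 genes lowered at least 2-fold, r was 0.511 and rho 0.471 over 138 members.

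**Figure D1:**
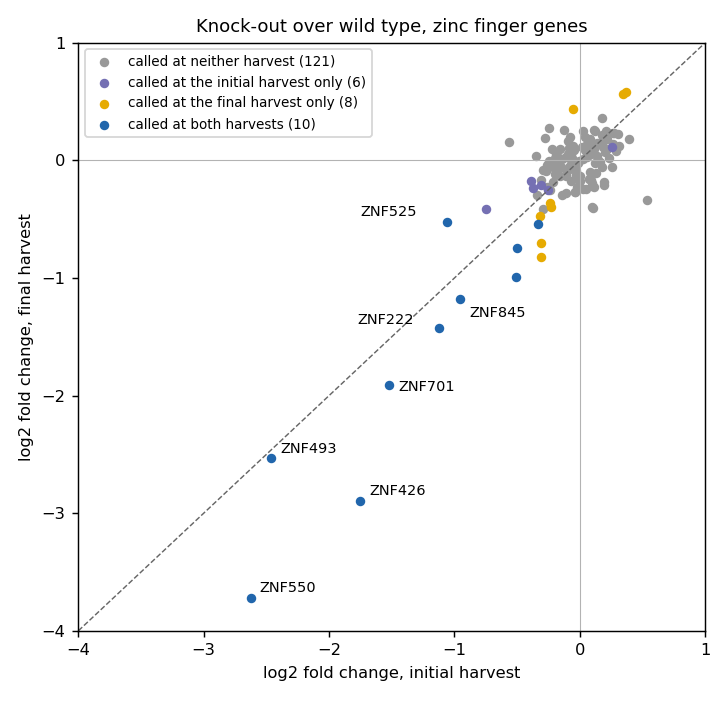
Log2 difference of knock-out against wild type for each of the 145 members at the initial harvest (horizontal axis) and the final harvest (vertical axis), 1 point per gene, coloured by where it was called. The 10 genes called at both harvests all lie in the lower left, and no gene passes a log2 difference of 1 in the other direction.

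ZNF550 (ENSG00000251369.9, chr19:57535257-57559863, minus strand) showed the largest fall among the members. The initial wild-type libraries held 1.93, 1.60 and 1.35 CPM and the final ones 2.71, 2.19 and 2.53 CPM. The initial knock-out libraries held 0.176, 0.150 and 0.459 CPM and the final ones 0.151, 0.178 and 0.226 CPM. All 6 knock-out libraries were below all 6 wild-type libraries, with 6 to 18 counts each initially and 6 to 9 finally, so a residual signal above 3 counts remained. The log2 difference was -2.63 (SE 0.30, adjusted p = 9.42e-06 by edgeR) in the initial libraries and -3.72 (SE 0.306, adjusted p = 2.15e-07) in the final ones. ZNF550 was 1 of 2 members with a group mean under 1 CPM, and so passed the level rule through the wild-type libraries. The gene overlaps another gene on the opposite strand, and whether counting used strand is not given in the sources used here.

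ZNF426 (ENSG00000130818.12, chr19:9523223-9538645, minus strand) encodes a KRAB zinc finger protein known as a repressor of a herpesvirus lytic switch gene. Its levels were 3.44, 4.05 and 3.43 CPM in the initial wild type and 7.92, 6.90 and 7.60 CPM in the final wild type. In the knock-out they were 1.08, 1.23 and 0.918 CPM initially and 1.06, 1.20 and 0.753 CPM finally. The wild-type level rose with culture time and the knock-out level stayed near 1 CPM in every library. The log2 difference between genotypes was -1.75 (SE 0.17, adjusted p = 1.62e-06, edgeR) initially and -2.90 (SE 0.166, adjusted p = 3.12e-09) after the 2 months.

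ZNF493 (ENSG00000196268.12, chr19:21397119-21427577, plus strand) was the other member with a group mean under 1 CPM. The initial wild-type libraries held 2.86, 1.70 and 2.15 CPM and the final ones 2.71, 2.68 and 2.82 CPM. Knock-out libraries held 0.454, 0.326 and 0.434 CPM initially and 0.704, 0.510 and 0.201 CPM finally. Wild-type and knock-out libraries did not overlap at either harvest. Over all genes tested, 35.5% did not overlap at the initial harvest and 33.1% at the final one. The knock-out stood at 18.2% of the wild type initially (log2 difference -2.46, SE 0.297, adjusted p = 1.71e-05, edgeR) and at 17.3% finally (-2.53, SE 0.285, adjusted p = 7.62e-06).

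ZNF222 (ENSG00000159885.14, chr19:44025342-44033110, plus strand) held 3.73, 5.11 and 3.88 CPM in the initial wild type and 1.89, 2.18 and 1.76 CPM in the initial knock-out. Its final levels were 4.15, 3.59 and 3.85 CPM in the wild type and 1.66, 1.10 and 1.56 CPM in the knock-out. The genotypes did not overlap, and the log2 differences were -1.12 (SE 0.17, adjusted p = 0.000166, edgeR) and -1.42 (SE 0.178, adjusted p = 2.45e-05). Of its 50-base words, 12.5% also occur in another gene, so part of its counts could be shared.

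**Figure D2:**
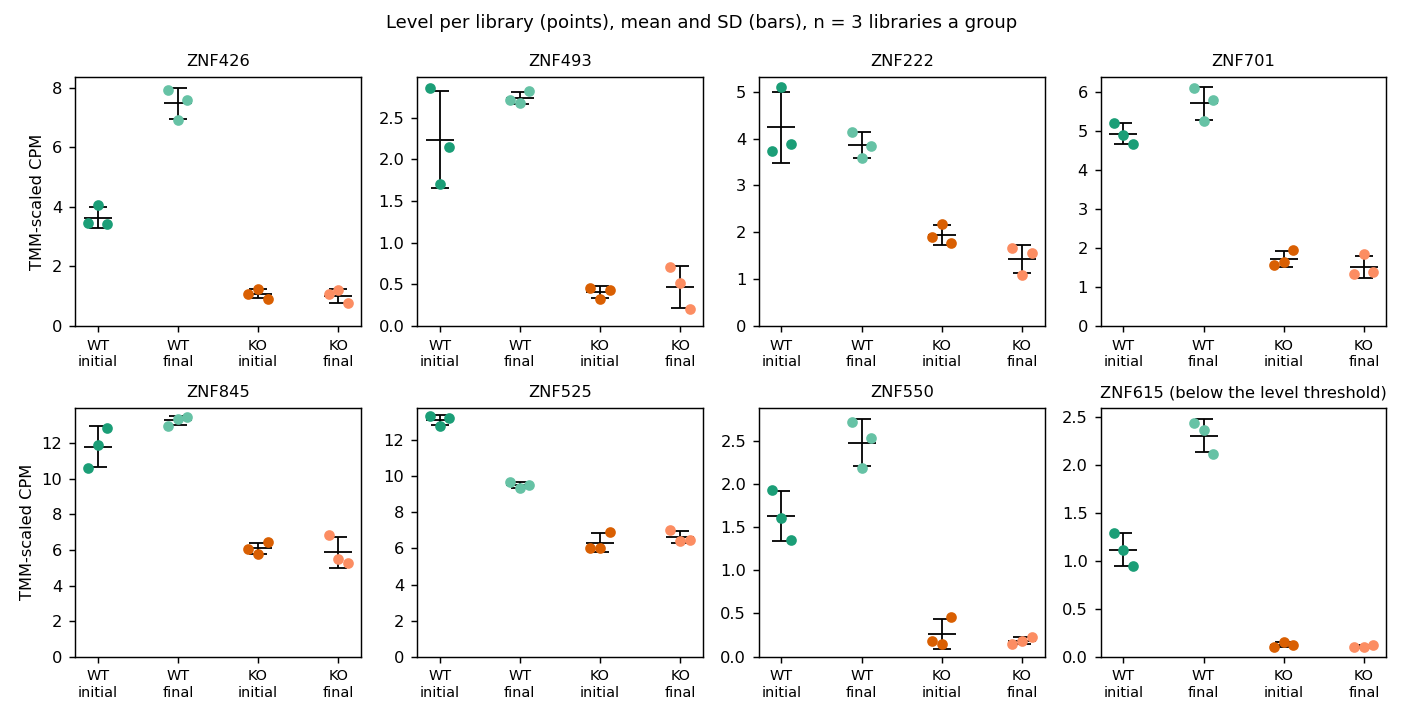
Level of the 7 strongly lowered members and of ZNF615, a gene just below the level threshold, in each of the 12 libraries in TMM-scaled CPM on linear axes from 0, with 1 point per library and lines at the mean and SD of each group (n = 3). ZNF550, ZNF493 and ZNF426 separate the genotypes at both harvests with no overlap, and the wild-type mean of ZNF426 goes from 3.64 CPM initially to 7.47 CPM finally. Of all genes tested, 35.5% had no overlap initially and 33.1% finally.

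The other 3 strongly lowered members lay in a single cluster, that from ZNF175 to ZNF331 (chr19:51571283-53580269), where 24 of 39 zinc finger genes were expressed. ZNF701 (ENSG00000167562.13, chr19:52555457-52587174, plus strand) held 5.22, 4.91 and 4.68 CPM in the initial wild type and 1.56, 1.65 and 1.94 CPM in the initial knock-out. The final libraries held 6.10, 5.26 and 5.79 CPM against 1.33, 1.84 and 1.38 CPM. The knock-out was thus at 34.8% and 26.5% of the wild type (log2 differences -1.52 and -1.91, SE 0.146 and 0.148, adjusted p = 1.37e-06 and 9.34e-08 by edgeR).

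ZNF845 (ENSG00000213799.13, chr19:53333749-53356906, plus strand) held 10.6, 11.9 and 12.9 CPM in the initial and 13.0, 13.4 and 13.5 CPM in the final wild type. Knock-out libraries held 6.05, 5.79 and 6.43 CPM and 6.86, 5.48 and 5.25 CPM at the same harvests. ZNF845 fell by 0.95 on the log2 scale initially (SE 0.115, adjusted p = 1.71e-05, edgeR) and by 1.18 finally (SE 0.116, adjusted p = 1.5e-06). Its downstream neighbour ZNF525 (ENSG00000203326.12, chr19:53365693-53392217, plus strand) begins 8786 bases past its end. ZNF525 held 13.3, 12.8 and 13.2 CPM in the initial wild type and 6.0, 6.01 and 6.91 CPM in the initial knock-out. The final wild type had dropped to 9.65, 9.35 and 9.54 CPM while the knock-out held 7.04, 6.40 and 6.45 CPM. Its log2 difference was therefore -1.06 (SE 0.096, adjusted p = 7.5e-07, edgeR) initially and -0.52 (SE 0.0969, adjusted p = 0.00105) after 2 months.

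These 3 genes have closely similar start sequences, which they share with genes that were not called. Over 128 other members with a RefSeq window, 8 had a window at least 80% identical to that of ZNF845 in a pairwise alignment, a threshold chosen after the identities were seen. The next closest member was at 70.7%, and the median of the rest was 46.8%. All 9 genes of this group lie in the cluster from ZNF175 to ZNF331, between chr19:52527652 and chr19:53461862. The windows of ZNF845, ZNF701 and ZNF525 are shown with that of ZNF765, which was not called, so that the likeness can be seen (CpG in capitals).
ZNF845 (chr19:53333499-53333798, plus strand): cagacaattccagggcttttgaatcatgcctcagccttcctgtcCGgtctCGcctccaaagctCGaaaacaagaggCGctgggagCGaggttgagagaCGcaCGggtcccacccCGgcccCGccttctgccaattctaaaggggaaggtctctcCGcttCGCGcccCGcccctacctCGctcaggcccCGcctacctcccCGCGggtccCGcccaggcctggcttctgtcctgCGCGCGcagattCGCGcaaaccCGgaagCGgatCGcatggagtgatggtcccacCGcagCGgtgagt
ZNF701 (chr19:52570037-52570336, plus strand): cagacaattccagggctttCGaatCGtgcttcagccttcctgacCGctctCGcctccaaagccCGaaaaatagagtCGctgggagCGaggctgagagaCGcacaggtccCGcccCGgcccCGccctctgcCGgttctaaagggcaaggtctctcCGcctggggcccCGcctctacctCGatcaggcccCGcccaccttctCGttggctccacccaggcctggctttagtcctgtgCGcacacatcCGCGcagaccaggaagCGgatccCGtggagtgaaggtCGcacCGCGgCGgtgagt
ZNF525 (chr19:53365455-53365754, plus strand): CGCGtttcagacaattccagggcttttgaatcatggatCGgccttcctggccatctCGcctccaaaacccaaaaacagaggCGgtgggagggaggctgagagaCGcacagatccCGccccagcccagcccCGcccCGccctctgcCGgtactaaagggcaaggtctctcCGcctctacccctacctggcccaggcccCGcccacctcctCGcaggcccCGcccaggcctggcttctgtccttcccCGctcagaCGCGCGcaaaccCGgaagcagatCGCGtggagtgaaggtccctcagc
ZNF765 (chr19:53394899-53395198, plus strand): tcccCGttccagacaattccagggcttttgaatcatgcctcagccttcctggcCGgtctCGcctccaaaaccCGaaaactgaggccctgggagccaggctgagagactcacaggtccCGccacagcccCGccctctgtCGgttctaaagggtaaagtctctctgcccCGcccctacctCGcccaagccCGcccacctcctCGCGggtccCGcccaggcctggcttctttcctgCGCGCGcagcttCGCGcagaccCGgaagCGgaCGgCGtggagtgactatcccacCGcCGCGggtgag
The window of ZNF701 was 86.0% identical to that of ZNF845, and its RefSeq start lies 14830 bases from the gene start in the count table. That of ZNF765 was also 86.0% identical, with a RefSeq start 5356 bases from the table's, and that of ZNF525 was 81.3% identical. Of the 9 genes, ZNF845, ZNF701, ZNF525 and ZNF808 were called lower at one harvest or both. The other 5, ZNF765, ZNF611, ZNF83, ZNF761 and ZNF468, had log2 differences between -0.12 and 0.22 over both harvests and were not called. Over all genes tested, 27.7% were called at either harvest, in either direction. The group was formed around ZNF845, itself a lowered gene, so the split is a description and was not tested. ZNF765 held 11.6 and 12 CPM on average in the initial and final wild type and 11.2 and 12.8 CPM in the knock-out. In the count table ZNF765 overlaps the lowered ZNF525 on the same strand, so these genes could share reads. ZNF611, whose window was 84.7% identical, held 7.36 and 7.61 CPM against 7.10 and 8.08 CPM. A like promoter sequence was thus found beside genes that fell and genes that were not called. Between 0.138% and 99.2% of the 50-base words of these genes also occur in other genes. ZNF468 had the largest share, so its counts are uncertain.

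**Figure D3:**
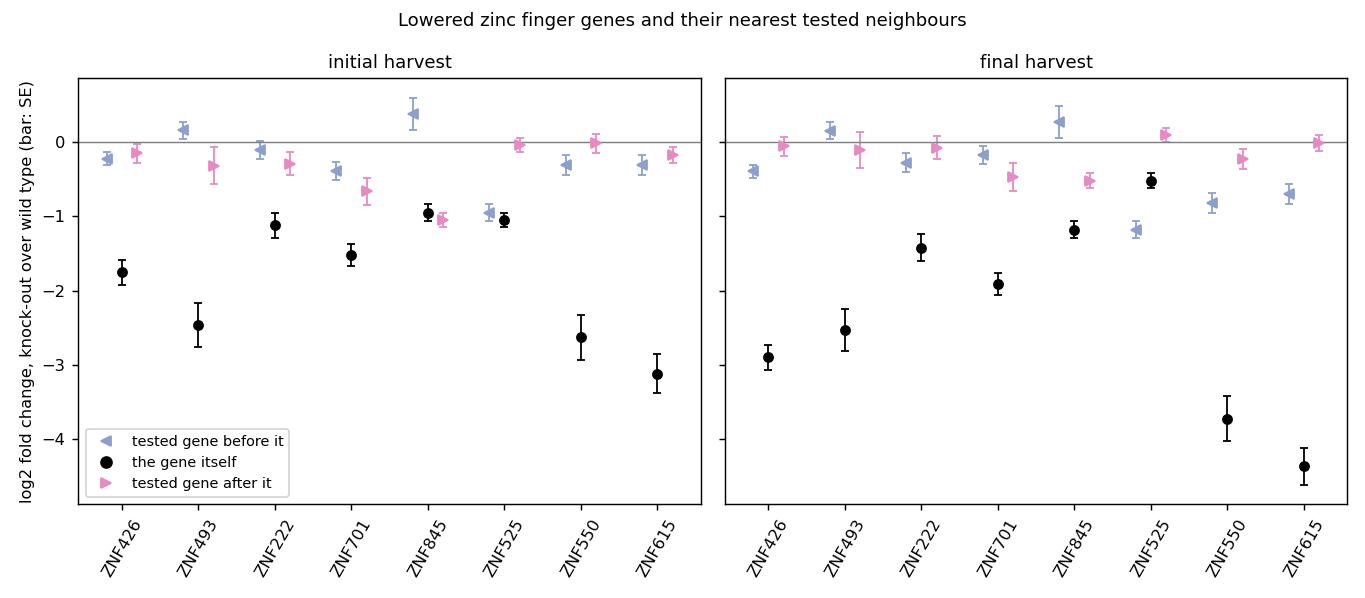
Log2 difference of knock-out against wild type at both harvests for the strongly lowered genes and the nearest tested gene on either side along chromosome 19, with bars for the SE. Lowered genes sit next to genes close to 0, as ZNF493 (-2.46 and -2.53) beside ZNF738 (0.16 and 0.15), and next to genes lowered less, as ZNF550 beside ZNF419.

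Genes next to the strongly lowered members were examined to show how far along the chromosome each fall extended. For ZNF550 this was fixed by the naming rule, and for the other genes it was added after their values were seen. ZNF419, 39158 bases from ZNF550, had log2 differences of -0.31 (adjusted p = 0.104, edgeR) and -0.82, and was called at the final harvest. ZNF416, 11702 bases away on the other side, stood at -0.02 and -0.23 and was not called. ZNF266, beside ZNF426, was called at the final harvest at -0.39, and ZNF121 on the other side was not called. Both neighbours of ZNF493 and both of ZNF222 were uncalled at both harvests. One of them, ZNF100, lies 295193 bases from ZNF493 and averaged only 0.547 to 0.736 CPM per group. Its lack of a call says little on how far that fall extended. ZNF808, which overlaps ZNF701, was called at the initial harvest (-0.39), as was the pseudogene ZNF137P on the other side (-0.66, adjusted p = 0.016). Members that overlap on a chromosome can share reads, and 100 of the 145 overlap another gene.

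Along the chromosome the called members were spread over several clusters. A cluster here is a run of zinc finger genes, expressed or not, with no gap over 1 Mb between neighbours, which gave 16 clusters, 14 of them with a member. Called members lay in 7 of these 14. Counting calls at either harvest and in either direction, 7 pairs of called members were next to each other in the order of members. In 6 of them both genes were lower at the same harvest, among them ZNF845 with ZNF525, ZNF441 with ZNF440, and ZNF613 with ZNF350. In the other pair ZNF480 was higher and ZNF808 lower. Whether called members adjoin more often than their number gives was not tested.

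In the cluster from ZNF175 to ZNF331, of 24 members, 1 was higher and 5 lower at the initial harvest (25% called, median log2 difference -0.18), and 5 were lower at the final harvest (20.8% called, median -0.06). In either direction, these shares are near the 19.9% and 18.5% of all genes tested. The 20.8% at the final harvest were all lower calls, against 10.2% of all genes called lower. At the initial harvest 5 of the 24 were called lower, against 11.3% of all genes. Neither difference was tested. The largest group, the cluster from ZNF628 to ZNF446 (chr19:55476617-58481230), had 41 members with 3 lower at each harvest (7.32% called) and medians of 0.08 and -0.03. It holds ZNF550, ZNF419 and ZNF134. The cluster from ZNF557 to ZNF846 (chr19:7069703-9793180) had 13 members, with 3 lower initially (23.1% called) and 2 finally (15.4% called). The cluster from ZNF653 to ZNF791 (chr19:11483427-12640098) had 12 members, with 2 lower initially (16.7% called) and 3 finally (25% called). The shares of both clusters lie on either side of those 19.9% and 18.5% of all genes, called in either direction. Lower calls alone were 11.3% and 10.2% of all genes. The shares rest on few genes, and their difference from the background was not tested. The pericentromeric cluster from ZNF101 to ZNF254 (chr19:19668796-24129968) had 12 members of 37 genes, and ZNF493 was its only call at either harvest.

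In the cluster from ZNF565 to ZNF573 (chr19:36182276-37817300) the only calls were higher in the knock-out. None of its 11 members was called at the initial harvest by edgeR, and 3 were higher and none lower at the final harvest, where its median log2 difference was 0.24. That is 27.3% of its members, against 18.5% of all genes tested called and 8.38% called higher. The share rests on few genes, and its difference from the background was not tested. The 3 genes were ZNF573, ZNF850 and ZNF565. ZNF573 (chr19:37735833-37817300, minus strand) held 1.68, 1.56 and 1.91 CPM in the final wild type and 2.69, 2.70 and 2.31 CPM in the final knock-out, with no overlap (log2 difference 0.58, SE 0.163, adjusted p = 0.0199, edgeR). ZNF850 (chr19:36714383-36772825, minus strand) held 3.50, 3.07 and 2.95 CPM against 4.85, 4.31 and 4.89 CPM (0.56, SE 0.13, adjusted p = 0.00534). ZNF565 (chr19:36182276-36246257, minus strand) held 3.69, 3.49 and 3.44 CPM against 4.47, 5.23 and 4.69 CPM (0.44, SE 0.114, adjusted p = 0.0121). Without replicate 1 or replicate 2 of the final knock-out or of the final wild type, ZNF573 missed the threshold. ZNF565 missed it without replicate 2 of the final knock-out or without replicate 2 or 3 of the final wild type.

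**Figure D4:**
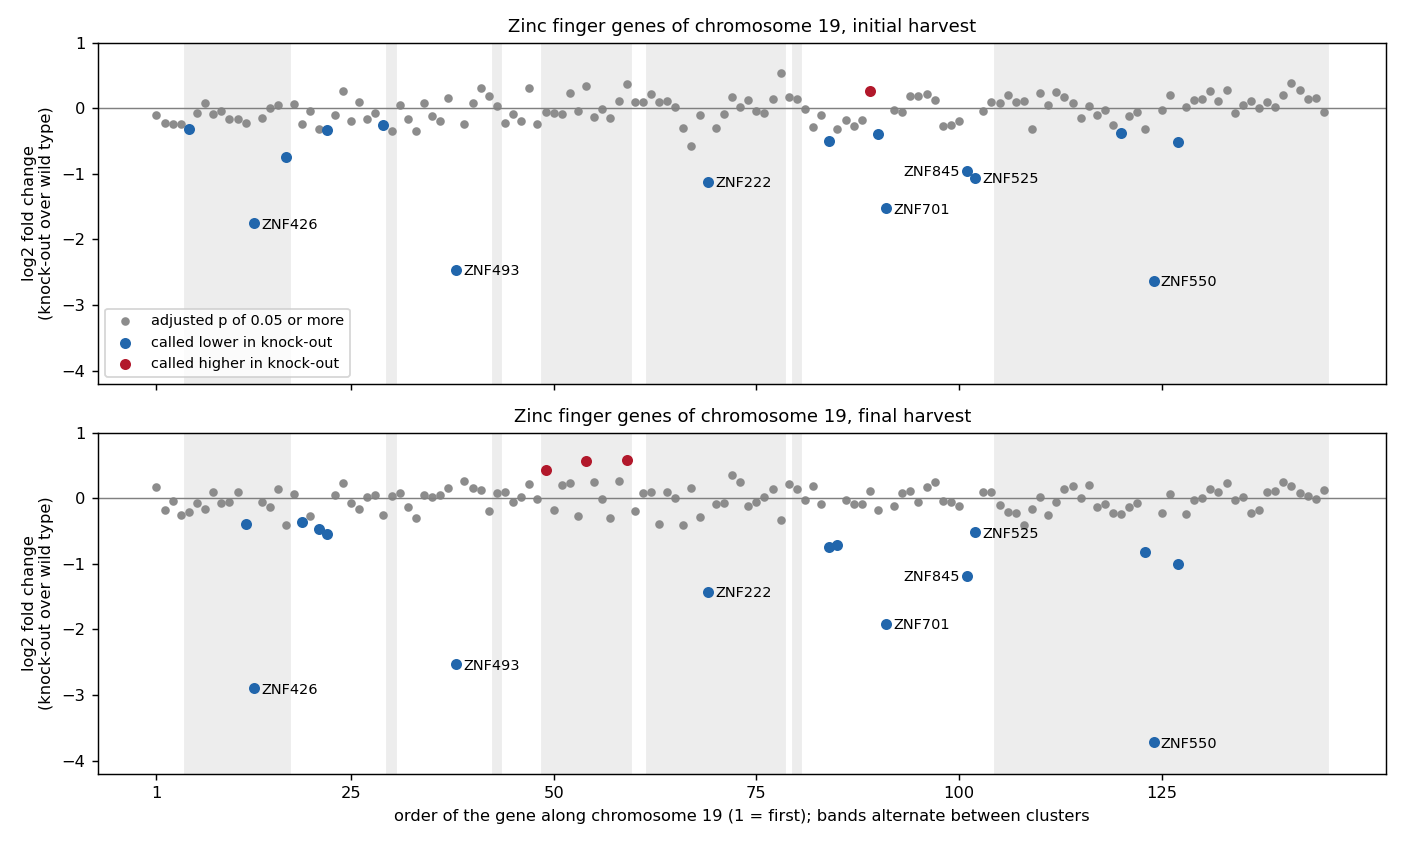
Log2 difference of knock-out against wild type for each member in order along chromosome 19, at the initial harvest (upper panel) and the final harvest (lower panel), with clusters marked by shading and called genes coloured. Lowered genes appear in several clusters, and the 3 genes called higher at the final harvest all lie in the cluster from ZNF565 to ZNF573.

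Falls of less than 2-fold were called in other members, of which ZNF134 was near that threshold. ZNF134 (ENSG00000213762.12, chr19:57614233-57624724, plus strand) held 13.7, 14.6 and 13.9 CPM in the initial wild type and 9.15, 10.4 and 10.1 CPM in the initial knock-out. The final levels were 18.6, 18.5 and 19.1 CPM against 9.28, 9.58 and 9.29 CPM, or 50.1% of the wild type (log2 difference -0.996, SE 0.0863, adjusted p = 3.55e-07, edgeR). ZNF613 fell at both harvests, by 0.50 and 0.74, and ZNF440 by 0.33 and 0.54. ZNF350, also known as ZBRK1, a repressor that binds BRCA1, was called at the final harvest only, at -0.70, against -0.31 (adjusted p = 0.118) at the initial harvest. The difference between harvests was not called for it. ZNF846 (-0.75), ZNF548 (-0.38) and ZNF808 (-0.39) were called at the initial harvest only. ZNF480 (chr19:52297169-52325922, plus strand) was the only member called higher at the initial harvest: 22.0, 23.3 and 24.6 CPM in the wild type against 27.0, 26.6 and 30.0 CPM (0.26, SE 0.0856, adjusted p = 0.0443). It missed the threshold without any single initial library, without replicate 3 of the final knock-out, and without replicate 2 or 3 of the final wild type.

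Over 2 months of culture, 7 members changed in the wild type, 2 higher and 5 lower, or 4.83% of the members against 6.47% of all genes tested (3.05% higher and 3.42% lower). The count was 4 without replicate 3 of the initial wild type and 3 without replicate 2 of the final wild type. ZNF426 rose by a log2 change of 1.04 (SE 0.142, adjusted p = 0.000292, edgeR) and ZNF134 by 0.41 (adjusted p = 0.00735). ZNF525 fell by 0.46 (adjusted p = 0.00638), ZNF565 by 0.45 (adjusted p = 0.0253) and ZNF557 by 0.43 (adjusted p = 0.00759). The call for ZNF557 was lost without replicate 2 of the final wild type. That for ZNF565 was lost without replicate 3 of the initial or replicate 2 or 3 of the final wild type. In the knock-out 2 members changed, both lower, or 1.38% against 1.48% of all genes (0.837% higher and 0.64% lower). ZNF230 fell from 5.51 ± 0.305 to 3.64 ± 0.448 CPM (SD, n = 3; log2 change -0.60, edgeR adjusted p = 0.0214). ZNF823 fell from 9.05 ± 0.113 to 6.43 ± 0.559 CPM (-0.49, edgeR adjusted p = 0.0173). Without any single library of the initial knock-out, or without replicate 1 of the final knock-out, neither was called. ZNF230 was also lost without replicate 3 of the final knock-out, and ZNF823 without its replicate 2.

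The difference between genotypes changed with time in 1 member, ZNF426, or 0.690% of the members against 1.28% of all genes tested (0.476% in that direction). Its level rose in the wild type from 3.64 ± 0.356 to 7.47 ± 0.521 CPM and was 1.08 ± 0.155 and then 1.0 ± 0.227 CPM in the knock-out (SD, n = 3). The interaction was -1.14 on the log2 scale (SE 0.244, edgeR adjusted p = 0.0275). It lost the threshold without replicate 1 or 2 of the initial knock-out, replicate 1 or 3 of the final knock-out, replicate 3 of the initial wild type, or replicate 3 of the final wild type. ZNF134 (interaction -0.48, adjusted p = 0.0729) and ZNF525 (0.54, adjusted p = 0.0757) did not pass.

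Genes on either side of the level threshold were similar in level. On the scale of the level rule, CPM of the library total, ZNF550 at 1.13, ZNF837 at 1.24 and ZNF461 at 1.31 CPM on average were just inside. Just outside were ZNF615 at 0.901, ZNF233 at 0.778 and ZNF575 at 0.724 CPM. Among the tested genes named here, ZNF615 (ENSG00000197619.14, chr19:51991332-52008230, minus strand) had the lowest share of the wild-type level. It held 1.29, 1.11 and 0.950 CPM in the initial and 2.44, 2.37 and 2.12 CPM in the final wild type. Knock-out libraries held 0.101, 0.150 and 0.128 CPM and 0.101, 0.102 and 0.125 CPM, or 4 to 6 counts each initially and 4 to 5 finally. The log2 differences were -3.12 (SE 0.266, adjusted p = 3.76e-07, edgeR) and -4.36 (SE 0.25, adjusted p = 2.97e-09). Of the 96 zinc finger genes below the threshold, 12 were tested, and 58 had at most 3 counts in every library. ZNF347 and ZNF665 had at most 3 counts in every knock-out library and passed 3 counts in some library of both wild-type groups, reaching 5 and 8 counts. Another 4 genes (ZNF20, ZNF569, ZNF793 and ZNF541) were as low in the knock-out and passed 3 counts in the initial wild type alone, ZNF20 with 4 to 8 counts there against 0 in all knock-out libraries. In the other direction, ZNF878, ZNF844, ZNF880 and ZNF528 had at most 3 counts in every wild-type library and passed 3 in some library of both knock-out groups, reaching at most 10, and 7 more genes did so in 1 knock-out group. How often other genes cross 3 counts between genotypes was not counted, so these crossings are not read as switches. No member was at or under 3 counts throughout any group. Among the 12 tested genes below the threshold, 4 were called at each harvest, against 19.9% and 18.5% of all genes tested. Besides ZNF615, the genes below the threshold that were called included ZNF772, lower at both harvests (-1.15 and -1.17), ZNF432, lower at the final one (-1.95), and ZNF763, higher at the initial one (1.46). ZNF610 was higher at both (1.55 and 2.15, edgeR adjusted p = 0.0339 and 0.016), from 0.0987 ± 0.065 and 0.0522 ± 0.0444 CPM in the wild type to 0.294 ± 0.0561 and 0.244 ± 0.0548 CPM in the knock-out (SD, n = 3). These genes were named after their values were seen.

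The median promoter window of the members held 22 CpG per 300 bases (quartiles 17 and 26, range 6 to 40, 129 windows). Over all 35116 windows in the table, of genes expressed here or not, the median was 14, the quartiles 4 and 28 and the highest 77. The difference was not tested. The 7 genes lowered at least 2-fold had a median of 19, the 20 genes called lower a median of 19.5, and the 106 genes with a window called in neither comparison a median of 22. Each window was also searched on both strands for CCGGAAGT (the ETS family site), TGACGTCA (the cyclic AMP response element), CGCATGCG (the core of the NRF1 site), AAGATGGC (YY1) and TGATGCAA (the C/EBP-ATF element). CCGGAAGT was present in 23.3% of the members' windows and 4.14% of all windows, and TGACGTCA in 5.43% and 1.85%. CGCATGCG was in 3.88% and 2.02%, AAGATGGC in 7.75% and 2.89%, and TGATGCAA in 0.775% and 0.866%. ZNF550 and ZNF222 held CCGGAAGT and ZNF426 held TGACGTCA, visible near the 3′ end of its printed window. These are matches of letters only.

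The proteins that KRAB zinc finger proteins act through were measured as a list of 40 co-factor and heterochromatin genes, of which 39 were tested. At the initial harvest 8 (20.5%) were called, a share near the 19.9% of all genes tested: 3 were higher (ATF7IP2 by 0.61, SUMO3 by 0.51 and KDM4B by 0.39 on the log2 scale) and 5 lower (KDM4A, SETDB2, ATF7IP, EHMT2 and CHD3, at -0.53 to -0.22), and at the final harvest only KDM4A was called, lower (2.56%, against 18.5% of all genes). KDM4A, a histone demethylase for H3 lysine 9, held 48.4 ± 3.04 and 41.8 ± 1.09 CPM in the initial and final wild type against 33.4 ± 1.39 and 34.1 ± 1.88 CPM in the knock-out (log2 differences -0.53 and -0.29, edgeR adjusted p = 0.000127 and 0.015). TRIM28, the KRAB co-repressor, held 899 ± 99.6 and 946 ± 16.8 CPM in the wild type and 1010 ± 45.1 and 886 ± 83.7 CPM in the knock-out, with log2 differences of 0.16 (adjusted p = 0.288) and -0.09 (adjusted p = 0.582). SETDB1 stood at -0.23 (adjusted p = 0.0555) and -0.01 (adjusted p = 0.942). The part of these genes in the members' falls was not tested.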

How the data were processed

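RNA-seq counts were analysed for 12 HCT116 libraries in 4 groups of 3. The deposited table holds raw read counts per gene, made by the authors with STAR, Subread and featureCounts on hg38, per the submitters' processing notes. Annotation release, strand setting and multi-mapping were not given in the sources used here. Of 60648 genes, 18289 passed edgeR's filterByExpr, and 5 lines holding 1 broken gene were left out. Counts were scaled by TMM and tested with edgeR 4.0.16 (R 4.3.3, robust quasi-likelihood, 4 group means, Benjamini-Hochberg over all genes). No replicate block entered the fit. DESeq2 1.42.0, DESeq2 size factors, no filter, glmTreat at 1.5-fold, a fit on only the groups compared, the replicate block, each library left out, a member threshold of 2 CPM and GC correction were alternatives. The fit was tested on simulated data. Gene coordinates are those of the deposited table, identical to GENCODE 29 (GRCh38) for all 37318 IDs of the same version. Promoter windows came from RefSeq (GRCh38.p14).

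Named genes were the 6 members raised and lowered most at each harvest among those called, the 3 raised and lowered most in each time comparison and the interaction, members at or under 3 counts throughout a group or changed at least 8-fold, the 5 highest per kilobase, 3 genes on each side of the threshold, and called co-factor genes. Other genes were named after their values were seen. The members and lists were chosen with earlier results of these data known. The deposited counts reached 38597809 to 40017561 per library, and precision is lowest for members near 1 CPM.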

Additional observations from a re-analysis of the deposited data

Results flagged for a closer look

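ZNF426 was the only member whose genotype difference changed between harvests by the interaction test (-1.14 on the log2 scale, edgeR adjusted p = 0.0275). The difference between knock-out and wild type was -1.75 initially and -2.90 after 2 months, and it was lower in all 6 knock-out libraries than in all 6 wild-type libraries. The wild type rose over the 2 months (log2 change 1.04), and the knock-out showed -0.10 (adjusted p = 0.857).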

How the results depend on the processing

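The 7 members lowered at least 2-fold kept their direction and call at both harvests under all 20 alternative fits, except ZNF525 at the final harvest in the test against 1.5-fold, and no result changed sign. With the level threshold at 2 CPM, ZNF550 and ZNF493 were no longer members, and 4 members in place of 6 were at least 2-fold lower at each harvest. The count of members called at the initial harvest was 7 in the test against 1.5-fold and ran from 8 to 22 with a library left out. At the final harvest it was 7 in the 1.5-fold test and 15 to 22 with a library left out. Over time in the wild type, against 7, it was 3 in a fit on only the groups compared, 11 with GC correction and the replicate block together, and 3 to 10 with a library left out. Over time in the knock-out, against 2, DESeq2 gave 4, only the groups compared gave 4, and a library left out gave 0 to 2. In the interaction, against 1, DESeq2 gave 3, no filter 2, GC correction 2, GC correction with the replicate block 2, and a library left out 0 to 2. The 1.5-fold test (edgeR glmTreat) gave 0 for both time comparisons and the interaction, with 1, 0 and 1 members at an unadjusted p under 0.05. The edgeR test without a fold had 33, 23 and 13 at that unadjusted level, and DESeq2 called 9, 4 and 3. The fit on fewer groups has fewer libraries to estimate the spread, and otherwise the cause was not tested.

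Replicate numbers did not pair the samples: correlations of same-numbered libraries ran from -0.59 to 0.53, and 2 of 12 libraries correlated best with their own number. With the replicate block the counts were 14, 18, 7, 2 and 1 for the initial, final, wild-type time, knock-out time and interaction comparisons. ZNF480 at the initial harvest missed the threshold in 13 of 20 alternatives. Depth limits genes near 1 CPM, where the knock-out libraries of ZNF550 held 6 to 18 counts.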
